A study of Mus musculus with 8 samples.

Results

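The 35 genes described here encode RNA-binding proteins of neural and developing tissue: the ELAV (Hu), Musashi, polypyrimidine tract binding, CELF, Rbfox, Nova, Muscleblind, STAR, FMRP, Pumilio and CPEB proteins, and the microexon regulator Srrm4. They were chosen by name and read wherever a probe set was annotated to a single gene that was one of them. All 35 had such a probe set, 119 in all, out of 18193 genes measured on the array, and the brightest of a gene's probe sets over the 8 arrays stood for that gene. Total RNA had been hybridised to a mouse whole-genome oligonucleotide array, on which a probe set is a group of short probes against transcripts of a gene. The study set pluripotent cells beside a neural and a mesenchymal cell type.

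All 8 arrays were labelled wild type, and the labels name no altered allele and no drug. The 3 embryonic stem (ES) cell arrays came from V6.5, a line of pluripotent cells from the mouse blastocyst. These cells grew in 15% serum with leukemia inhibitory factor, first on irradiated fibroblasts and then for 2 to 3 passages or more on 0.2% gelatin without them. The 3 neural precursor cell (NPC) arrays came from ES cells taken through embryoid bodies for 4 days and ITSFn medium for 5 to 7 days, and then kept in FGF2 and a factor written as EGF2 in the labels. By the labels these cells could still give rise to neurons, astrocytes and oligodendrocytes. The 2 embryonic fibroblast (MEF) arrays came from cells in 10% serum, and the age of the embryos is not in the labels. Whether arrays with the same label came from different cultures is not stated, so a p-value here covers the spread among these arrays alone, and that spread may be technical.

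RNA-binding proteins recognise short motifs in transcripts and set how these are spliced, how long they last, where they lie and how often they are translated. Polypyrimidine tract binding, Rbfox, Nova, CELF, Muscleblind, STAR and Srrm4 proteins act mainly on alternative splicing. ELAV proteins stabilise transcripts with AU-rich elements, and Musashi, FMRP, Pumilio and CPEB proteins act mainly on translation in the cytoplasm. Several of the families have a member found in most cells and others that are largely neuronal, and in the developing brain the replacement of Ptbp1 by Ptbp2 is a textbook step in neuronal splicing.

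The arrays carried the markers of their labelled cells. Summed over lists of marker genes, the quantile-normalized intensity of 8 ES markers was 32129 to 32789 on the ES arrays and at most 321 on any other. The sum of 9 NPC markers was 23214 to 30510 on the NPC arrays against 5206 to 5799 in ES cells and 12045 to 12062 in MEF. The higher sum in MEF than in ES cells did not hold across the list. There 4 of the 9 were called higher and 4 lower, with a median difference of -0.75 log2 units. Of these 9, 7 were called higher in NPC than in ES cells, and the transcription factors Sox2 and Sox1 differed by -0.98 and -0.97 log2 units. The sum of 10 fibroblast markers was 32075 to 32624 on the MEF arrays and at most 420 elsewhere. Neuron markers summed to 3977 to 4183 in ES cells, 3108 to 4084 in NPC and 1176 to 1194 in MEF. NPC 1 stood apart from NPC 2 and NPC 3, and the lowest correlation within its group was 0.967, against 0.986 within ES and 0.992 within MEF. Both MEF arrays were the brightest as deposited, and all values below are after quantile normalization, given as log2(intensity + 16), a scale on which the median of every array was 5.30. Values compare the same probe set between arrays, and levels of different genes are not compared.

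A gene was called different at a limma p-value under 0.05 after Benjamini-Hochberg adjustment over all 18193 genes and a difference of at least 1 log2 unit. In NPC against ES cells, 13 of the 35 genes (37.1%) were called, where 22.9% of all genes were. Of the 13, 6 were higher in NPC (background 10.0%) and 7 lower (12.9%). In MEF against ES cells 13 were called, where 25.0% of all genes were. Of these, 7 were higher in MEF (background 12.2%) and 6 lower (12.8%). In MEF against NPC 13 were called, where 18.5% of all genes were. Of these, 6 were higher in MEF (background 10.5%) and 7 lower (7.95%). These shares depend on signal: among all genes at or above the 40th percentile of mean signal 33.0%, 35.1% and 25.3% were called in the 3 comparisons. Of the 35 genes 27 were in that range, and 12, 12 and 9 of them were called, beside 1, 1 and 4 of the 8 dimmer ones. The share among all dimmer genes is not given here, so the counts of these 8 are not read as an excess. The 4 in MEF against NPC were Rbfox1, Rbfox3, Srrm4 and Cpeb1, and each of these calls ended under an alternative given below. The median difference of the 35 genes was 0.07, -0.14 and -0.05 log2 units in the 3 comparisons, and that of all genes was -0.05, -0.04 and -0.01. In bulk RNA, fewer cells with a transcript and less of it in each cell cannot be told apart.

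In all, 20 of the 35 genes were called in at least 1 comparison, where 36.9% of all genes were. Elavl2, Elavl3, Celf5, Fxr1 and Fxr2 were called higher in ES cells than in both other cell types, a pattern of 7.77% of all genes. Celf2, Mbnl1 and Cpeb4 were called lower in ES cells than in both others, against 4.70% of all genes. Nova1, Nova2, Khdrbs3 and Cpeb4 were called highest in NPC (4.21% of all genes) and Celf4 and Cpeb1 lowest there (4.06%). Rbfox1, Rbfox2 and Mbnl2 were called highest in MEF (6.22%), and Elavl2 and Nova2 lowest there (2.53%). In each of the 39 differences called for the 35 genes, no array of either group lay within the range of the other. With 2 or 3 arrays per group this also occurred in differences not called, such as Elavl1 in MEF against ES cells (0.10, limma adjusted p = 0.501). Its share over all genes was not taken, so it adds no support to the calls.

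**Figure D1:**
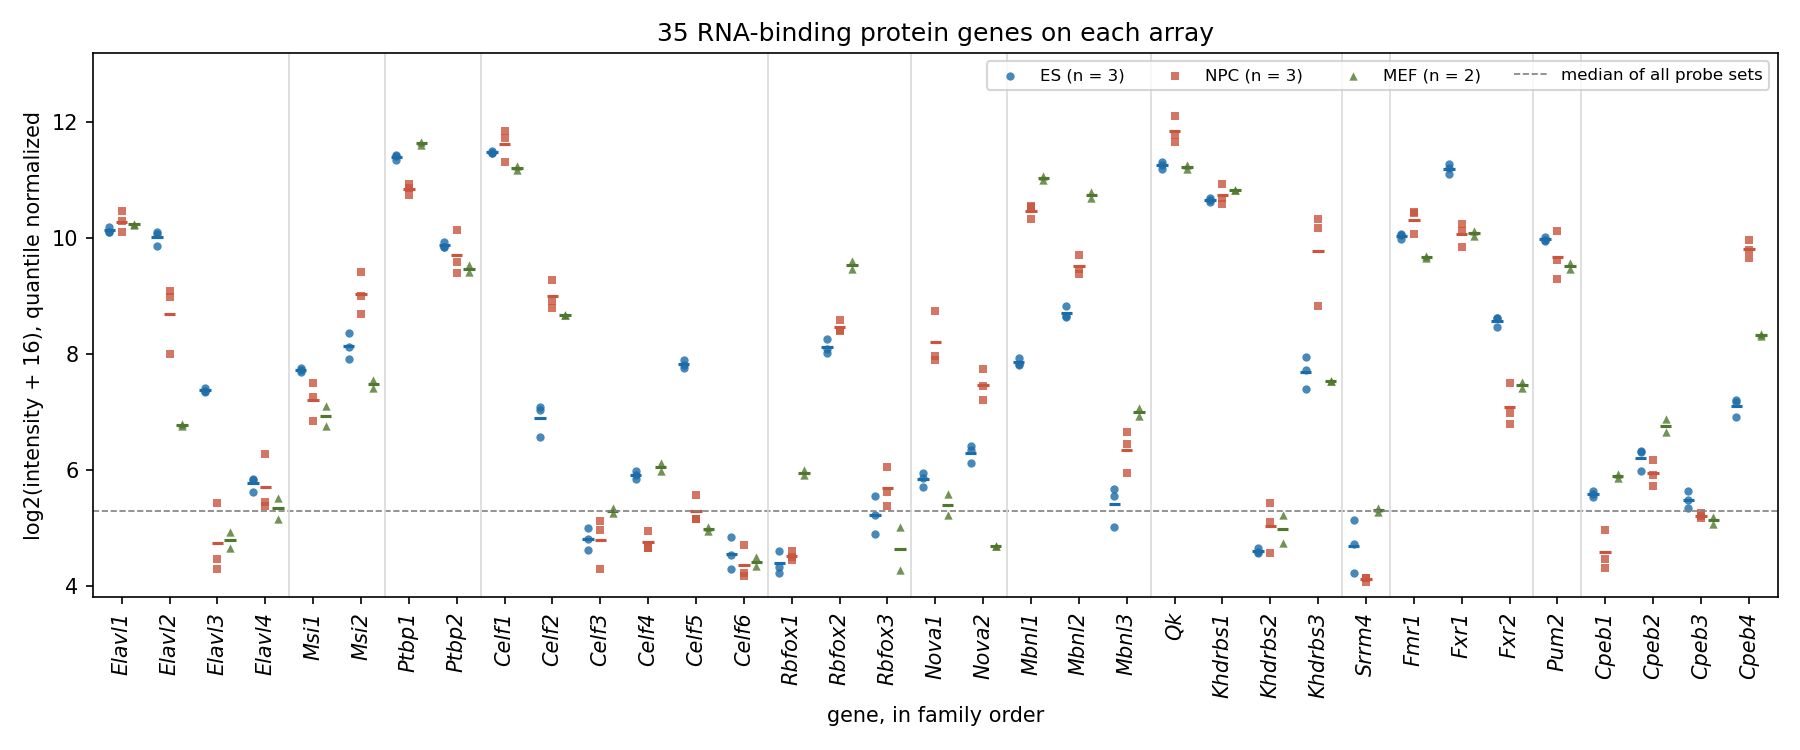
Normalized log2(intensity + 16) of the genes on each of the 8 arrays, 1 point per array, with ES, NPC and MEF arrays in separate colours, short bars at the group means and a dashed line at the array median. The points of Elavl2, Elavl3, Celf5, Fxr1 and Fxr2 lie highest in ES cells, those of Nova1, Nova2, Khdrbs3 and Cpeb4 in NPC, and those of Rbfox1, Rbfox2 and Mbnl2 in MEF.

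Among the ELAV proteins, Elavl2 and Elavl3 were highest in ES cells, although both are known mainly from neurons. Elavl2, also known as HuB, read 10.10, 10.08 and 9.87 on the ES arrays, 8.01, 8.98 and 9.09 on the NPC arrays and 6.79 and 6.76 on the MEF arrays. The 3 cell types thus lay in 3 separate steps, with NPC 1 about 1 unit under the other NPC arrays. Elavl2 was 9.45-fold lower in MEF than in ES cells (log2 difference -3.24, SE 0.278, adjusted p = 1.34e-05) and 3.78-fold lower in MEF than in NPC. Its difference between NPC and ES cells was -1.32 (SE 0.249, adjusted p = 0.00181), and the call was lost without NPC 1 (-0.98) and in the mean of its 5 probe sets (-0.89). Each of the 5 probe sets was lower in both NPC and MEF than in ES cells.

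Elavl3, or HuC, read 7.36, 7.41 and 7.35 in ES cells, 4.30, 4.46 and 5.43 in NPC and 4.94 and 4.65 in MEF. Both other cell types were at or near the array median or below it, and their arrays overlapped each other. It was 6.25-fold lower in NPC than in ES cells (-2.64, SE 0.28, adjusted p = 4.9e-05) and 5.99-fold lower in MEF (-2.58, SE 0.313, adjusted p = 0.000121). Elavl4, or HuD, lay close to the array median in all 3 cell types, between 5.16 and 6.28. Elavl1, or HuR, the member found in most cells, was between 10.10 and 10.47 on all 8 arrays. Differences of Elavl1 were 0.15 (SE 0.0948) between NPC and ES cells and 0.10 (SE 0.106) between MEF and ES cells, neither of them called. The latter rested on the scaling. It was 0.59 (limma adjusted p = 0.00256) with median centring and 0.91 (adjusted p = 0.000867) with the deposited scaling, both under 1 unit. Of the 15 neuron markers, 3 were called lower in NPC than in ES cells and 5 higher. Stmn2, a tubulin-binding protein of growing axons, was at 11.40 to 11.45 in ES cells and 4.15 to 4.60 in NPC, while Map2, a microtubule protein of dendrites, was at 5.43 to 5.80 in ES cells and 10.56 to 11.19 in NPC. The part of neuron-marker transcripts in the ELAV values was not tested.

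The Musashi proteins bind transcripts of neural and other stem cells and mostly hold back their translation. Msi2 read 8.37, 8.13 and 7.92 in ES cells, 9.43, 9.00 and 8.68 in NPC and 7.42 and 7.55 in MEF. The order was NPC, then ES cells, then MEF, with no overlap between cell types, but the place of ES cells and MEF rested on the scaling: MEF differed from ES cells by -0.17 (adjusted p = 0.559) with median centring and by 0.15 (adjusted p = 0.69) with the deposited scaling. It was 2.93-fold lower in MEF than in NPC (-1.55, SE 0.211, adjusted p = 0.000347), a call lost with median centring (-1.0) and with the deposited scaling (-0.65). The difference between NPC and ES cells was 0.90 (SE 0.188, adjusted p = 0.00336), under the 1 unit set for a call, and reached it without ES 1 (1.02), without NPC 3 (1.08) and when probe sets of shared sequence were left out (1.37). All 7 further probe sets of Msi2 had the same sign in this comparison. Msi1, a marker of neural stem cells, read 7.69 to 7.76 in ES cells, 6.85 to 7.51 in NPC and 6.76 to 7.10 in MEF, and its differences from ES cells of -0.52 (adjusted p = 0.0344) in NPC and -0.80 (adjusted p = 0.0078) in MEF were under 1 unit. The latter was -0.38 (adjusted p = 0.145) with median centring and -0.057 (adjusted p = 0.854) with the deposited scaling.

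Ptbp1 represses many neuronal exons in cells outside the nervous system, and Ptbp2 is its neural paralog. Ptbp1 read 11.35, 11.42 and 11.44 in ES cells, 10.87, 10.75 and 10.93 in NPC and 11.61 and 11.67 in MEF. The NPC arrays were lowest and the MEF arrays highest, each outside the range of the ES arrays. The differences were -0.55 (SE 0.0697, adjusted p = 0.000148) for NPC against ES cells and 0.78 (SE 0.078, adjusted p = 5.02e-05) for MEF against NPC, significant but under 1 unit. Under median centring (1.33) and the deposited scaling (1.68) the second was called. The lower Ptbp1 level in NPC rested on the brightest probe set, since the 2 further ones differed by only -0.09 and -0.05 between NPC and ES cells. Ptbp2 read 9.94, 9.86 and 9.85 in ES cells, 10.14, 9.39 and 9.59 in NPC and 9.54 and 9.41 in MEF, and the NPC arrays spanned the ES arrays. Its differences of -0.17 (adjusted p = 0.449) in NPC and -0.41 (adjusted p = 0.11) in MEF against ES cells did not pass the test.

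The log2 ratio of Ptbp2 to Ptbp1 was taken on each array, so that only its shift between cell types counts. It was -1.41, -1.57 and -1.59 in ES cells, -0.73, -1.36 and -1.34 in NPC and -2.07 and -2.25 in MEF. All NPC arrays lay above and both MEF arrays below the ES arrays, with NPC 1 well apart from the other NPC arrays. The shift was 0.38 from ES cells to NPC, -0.64 from ES cells to MEF and -1.02 from NPC to MEF. A two-sided exact permutation test gave p = 0.1 for each (0.1 after adjustment over the 3), the smallest value that these numbers of arrays allow. The shift to NPC was 0.17 without NPC 1 and 0.10 in the mean of each gene's probe sets. It was -0.08 (exact permutation p = 0.9) when probe sets of shared sequence were left out. That choice replaces the Ptbp1 probe set by a dimmer one.

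CELF proteins bind GU-rich elements and act on splicing in the nucleus and on decay in the cytoplasm. Of the 6 members, Celf2 was lower, and Celf5 higher, in ES cells than in both other cell types. Celf5 read 7.82, 7.89 and 7.77 in ES cells, 5.57, 5.15 and 5.15 in NPC and 4.95 and 5.02 in MEF. It was 5.8-fold lower in NPC (-2.54, SE 0.163, adjusted p = 1.94e-06) and 7.17-fold lower in MEF (-2.84, SE 0.182, adjusted p = 2.18e-06) than in ES cells, and the values outside ES cells were close to the array median. Celf2 read 7.04, 7.08 and 6.57 in ES cells, 9.29, 8.92 and 8.80 in NPC and 8.68 and 8.67 in MEF. It was 4.3-fold higher in NPC (2.10, SE 0.168, adjusted p = 7.88e-06) and 3.42-fold higher in MEF (1.78, SE 0.188, adjusted p = 5.03e-05) than in ES cells. The 3 brightest of its 7 probe sets, all of the kind that can share sequence between transcripts, rose alike, by 1.52 to 2.10 in NPC. Without them the differences were 0.92 and 0.04, and the calls ended. The probe set then read was dim, with means of 4.22 in ES cells, 5.14 in NPC and 4.26 in MEF. All 3 were under the array median, so changes could not be read well on it.

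Celf4 had the reverse pattern in NPC, at 5.84, 5.98 and 5.91 in ES cells, 4.66, 4.65 and 4.94 in NPC and 5.99 and 6.11 in MEF. ES and MEF arrays lay together above all NPC arrays. It was 2.23-fold lower in NPC than in ES cells (-1.16, SE 0.154, adjusted p = 0.000211) and 2.46-fold higher in MEF than in NPC (1.30, SE 0.172, adjusted p = 0.0003), and all 3 of its probe sets had these signs. With a pseudocount of 64 in place of 16, which shrinks differences of dim genes, both calls ended. Celf1, the member found in most cells, was between 11.18 and 11.85 on all arrays and was not called from its brightest probe set. A further Celf1 probe set, at 9.42 in ES cells and 9.48 in NPC, was at 8.33 in MEF and was called lower there in both comparisons (-1.09 and -1.15). Celf3 and Celf6 lay under the array median in every group mean, and Celf6 did so on all 8 arrays, so changes in them could not be read well at this signal.

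Rbfox proteins bind the motif UGCAUG beside exons and switch splicing in brain, heart and skeletal muscle. Rbfox1 and Rbfox2 were highest in MEF, not in NPC. Rbfox2 read 8.08, 8.26 and 8.01 in ES cells, 8.39, 8.42 and 8.58 in NPC and 9.48 and 9.61 in MEF. Both MEF arrays lay above every other array. The NPC arrays lay just above the ES arrays, but all 3 further Rbfox2 probe sets had the opposite sign there (-0.52 to -0.081). The difference was 1.43 (SE 0.113, adjusted p = 7.98e-06) against ES cells, or 2.69-fold, and 1.08 (SE 0.113, adjusted p = 7.07e-05) against NPC, where a pseudocount of 64 (0.98) ended the call. Rbfox1 read 4.33, 4.60 and 4.23 in ES cells, 4.44, 4.60 and 4.49 in NPC and 6.0 and 5.91 in MEF. It was thus under the array median in ES cells and NPC, and 2.96-fold higher in MEF than in ES cells (1.57, SE 0.163, adjusted p = 4.49e-05). All 4 of its probe sets were higher in MEF than in ES cells, by 0.58 to 1.57, and the calls ended with a pseudocount of 64 (0.68) and without probe sets of shared sequence, where the difference was 1.0, just under the threshold, against ES cells and 0.99 against NPC.

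Rbfox3, whose protein is the neuronal antigen NeuN, read 5.22, 5.55 and 4.90 in ES cells, 6.05, 5.62 and 5.38 in NPC and 5.01 and 4.26 in MEF. Its ranges in NPC and ES cells overlapped. It was called 2.06-fold lower in MEF than in NPC (-1.04, SE 0.3, adjusted p = 0.0215). That call ended without NPC 1 (-0.86), without MEF 2 (-0.67), in the mean of its probe sets (-0.55) and under the deposited scaling (-0.79). Of 8 muscle markers, 4 were called higher and 1 lower in MEF than in ES cells and 6 higher in MEF than in NPC, and their summed intensity was 1129 to 1213 in MEF, 1154 to 1325 in ES cells and 112 to 119 in NPC. Myog, a transcription factor of differentiating muscle, was at 6.09 to 6.13 in MEF and at most 4.73 elsewhere, whereas Mylpf, a light chain of skeletal muscle myosin, was the marker called lower in MEF than in ES cells (-2.85). Of 7 macrophage markers, 6 were called higher in MEF than in NPC, and 4 were called higher and 2 lower (Cd68 and Laptm5) in MEF than in ES cells, with sums of 1055 to 1081 in MEF, 616 to 681 in ES cells and 88 to 113 in NPC. The part of either cell type in the values of Rbfox1, Rbfox2 and the Muscleblind genes was not tested.

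Nova proteins bind YCAY clusters and direct splicing of synaptic transcripts. Both were highest in NPC. Nova1 read 5.71, 5.95 and 5.86 in ES cells, 8.74, 7.91 and 7.96 in NPC and 5.21 and 5.59 in MEF. It was 5.14-fold higher in NPC than in ES cells (2.36, SE 0.233, adjusted p = 3.09e-05) and 6.96-fold lower in MEF than in NPC (-2.80, SE 0.261, adjusted p = 3.37e-05). Nova2 read 6.34, 6.12 and 6.42 in ES cells, 7.20, 7.75 and 7.46 in NPC and 4.68 and 4.69 in MEF. Unlike Nova1, whose ES and MEF means differed by -0.44 (adjusted p = 0.213), Nova2 was also 3.05-fold lower in MEF than in ES cells (-1.61, SE 0.195, adjusted p = 0.00012). The difference of Nova2 between NPC and ES cells was 1.17 (SE 0.175, adjusted p = 0.000428) and that between MEF and NPC -2.78. The second Nova1 probe set had the same sign in both comparisons with NPC (1.12 against ES cells and -1.02 for MEF against NPC) and differed by 0.10 between MEF and ES cells, whereas the second Nova2 probe set was at 4.09 to 4.26 in all 3 cell types. With the mean of both Nova2 probe sets its differences from ES cells were 0.52 in NPC and -0.89 in MEF, and with a pseudocount of 64 they were 0.83 and -0.79, none of them called. Of 6 astrocyte markers, 3 were called higher in NPC than in ES cells and 3 lower in MEF than in NPC, and their summed intensity was 917 to 973 in ES cells, 3884 to 5175 in NPC and 71 to 87 in MEF. Of 5 oligodendrocyte markers measured, 1 was called higher and 1 lower in NPC than in ES cells, with sums of 299 to 328 in ES cells, 675 to 893 in NPC and 250 to 255 in MEF. The part of either cell type in the values of Nova1, Nova2, Khdrbs3 and Qk was not tested.

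**Figure D2:**
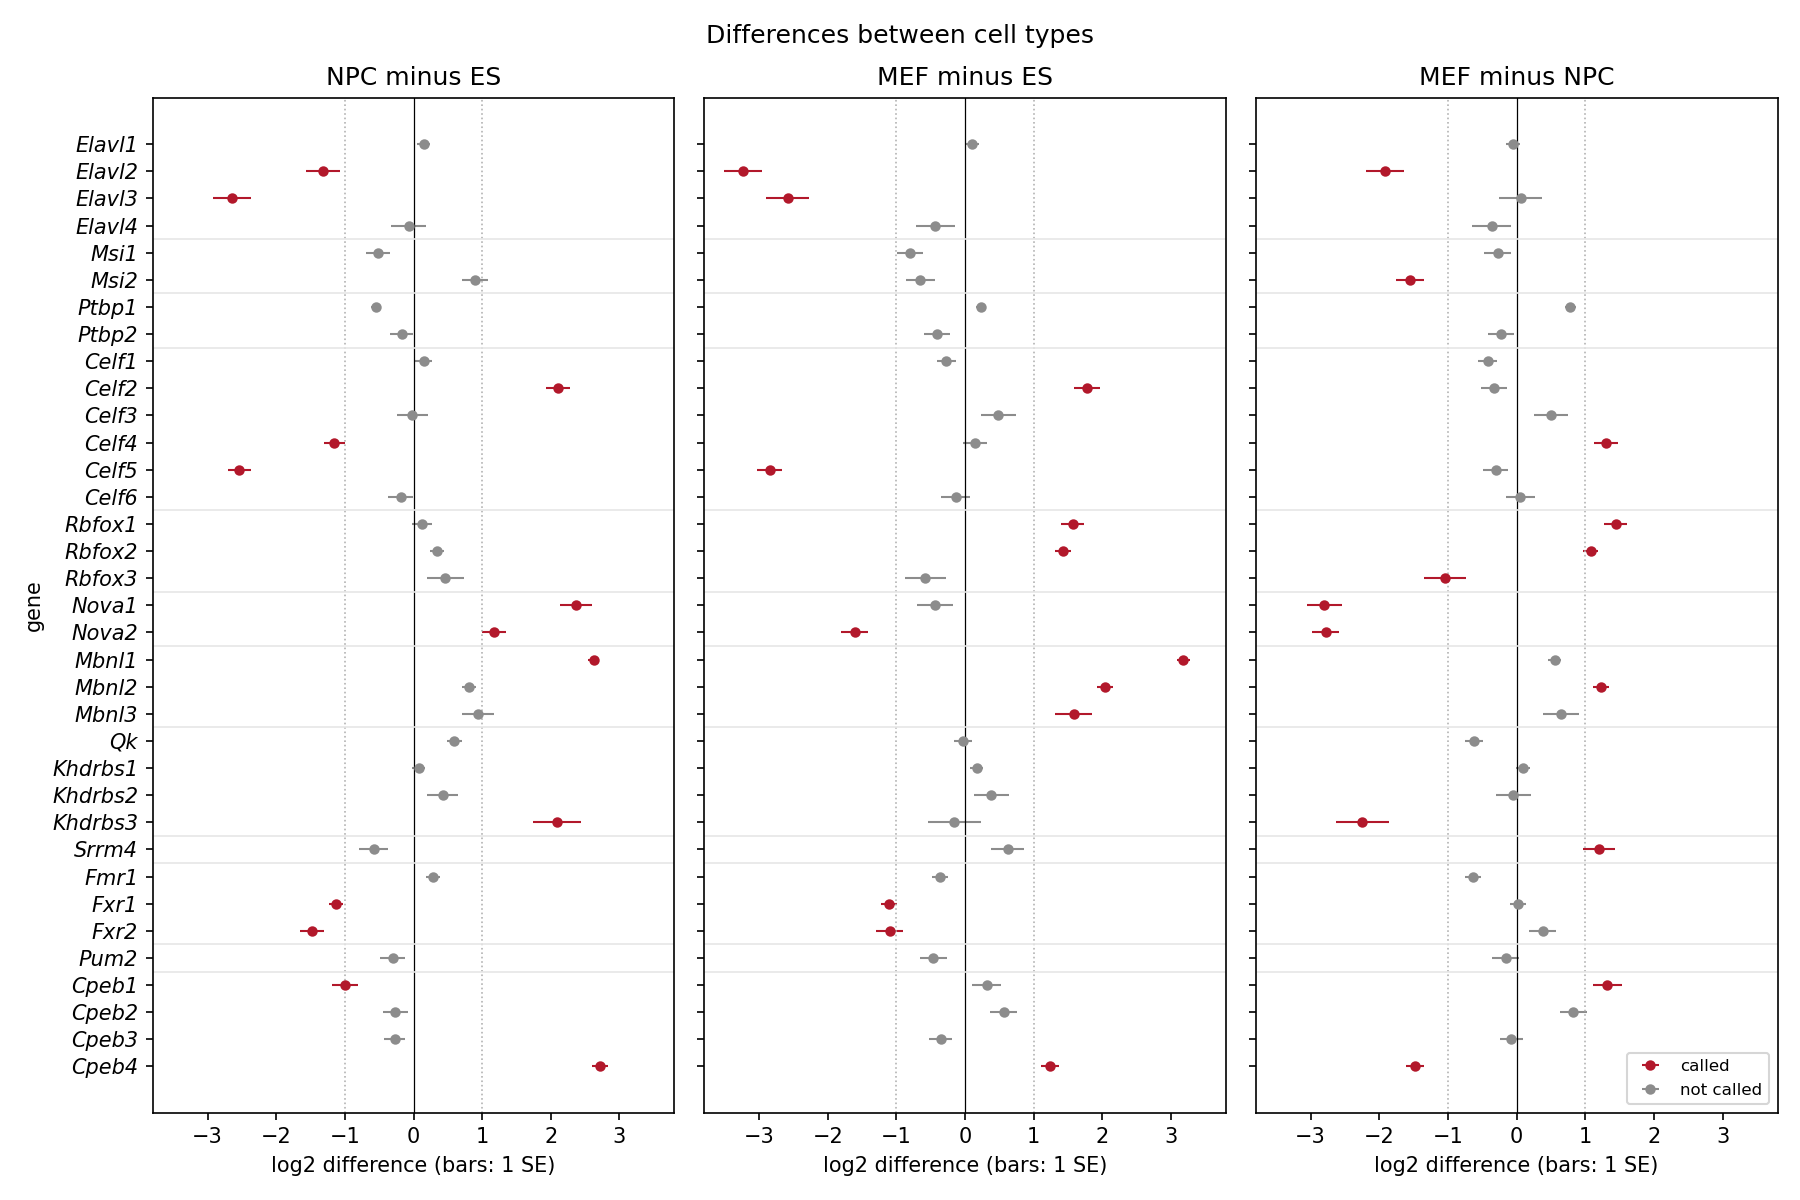
Log2 differences of the 35 genes with their standard errors, for NPC against ES cells, MEF against ES cells and MEF against NPC, with lines at 1 log2 unit in either direction and called genes marked. Cpeb4, Mbnl1 and Nova1 lie furthest to the higher side in NPC against ES cells, at 2.71, 2.62 and 2.36, and Elavl3 and Celf5 furthest to the lower, at -2.64 and -2.54.

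The Nova genes shared their highest level in NPC, and the 250 bases upstream of their annotated starts are shown for that reason, with matches to 6 motifs in capitals. The motifs, searched on both strands, were the CCAAT box (CCAAT), the GC box (GGGCGG), the TATA box (TATAAA), the E-box CAGCTG, the octamer (ATGCAAAT) and the Sox core (ACAATG). The element bound by REST, a repressor of neuronal genes, was searched by name as RE1. Nova1 lies on the minus strand of chr12, with the window at chr12:46818768-46819017, and Nova2 on the plus strand of chr7, with the window at chr7:18925638-18925887 (RefSeq, GRCm38.p6). The windows share none of these motifs: Nova1 has 1 E-box and Nova2 has 2 GC boxes.
Nova1: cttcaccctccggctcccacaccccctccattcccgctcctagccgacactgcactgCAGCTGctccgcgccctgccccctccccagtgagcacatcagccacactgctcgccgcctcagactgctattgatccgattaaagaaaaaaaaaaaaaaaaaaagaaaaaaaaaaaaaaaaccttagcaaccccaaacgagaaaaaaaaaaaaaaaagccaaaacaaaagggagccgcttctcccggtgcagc
Nova2: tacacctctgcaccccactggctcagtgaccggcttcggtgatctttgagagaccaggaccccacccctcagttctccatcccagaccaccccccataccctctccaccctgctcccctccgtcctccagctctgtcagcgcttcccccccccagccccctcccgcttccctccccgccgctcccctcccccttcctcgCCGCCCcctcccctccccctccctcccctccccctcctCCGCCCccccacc

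Over the whole set, 29 of the 35 genes had 61 such windows. Their median GC content was 63.2% and their median number of CpG dinucleotides 14, against 52.4% and 6 over 32851 windows of all genes. The GC box was in 57.4% of the windows of these genes (35 of 61) and in 32.7% of all windows, and the CCAAT box in 41.0% and 33.8%. The E-box was in 18.0% and 13.0%, the Sox core in 9.84% and 10.7% and the TATA box in 9.84% and 12.4%. The octamer was in none of the 61 and 1.60% of all windows, and RE1 in none of the 61 and 0.0548%. A match only says that the letters occur, and several windows can belong to 1 gene.

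Muscleblind proteins bind YGCY motifs and promote the splicing patterns of differentiated cells. All 3 were higher in MEF than in ES cells. Mbnl1 read 7.81, 7.83 and 7.93 in ES cells, 10.55, 10.33 and 10.55 in NPC and 11.00 and 11.07 in MEF. The gap between ES cells and the others was over 2 units on every array. Mbnl1 was 6.15-fold higher in NPC (2.62, SE 0.0851, adjusted p = 3.44e-08) and 9.06-fold higher in MEF (3.18, SE 0.0951, adjusted p = 3.49e-08) than in ES cells. Its 2 further probe sets, both dimmer, differed from ES cells by 1.19 and 0.21 in NPC and by 0.81 and 0.38 in MEF. Of these only the 1.19 was called. Mbnl2 read 8.84, 8.66 and 8.64 in ES cells, 9.38, 9.47 and 9.71 in NPC and 10.70 and 10.80 in MEF, a rise in steps without overlap. It was 4.1-fold higher in MEF than in ES cells (2.04, SE 0.117, adjusted p = 1.18e-06) and 2.35-fold higher than in NPC (1.23, SE 0.117, adjusted p = 3.69e-05), and 0.80 (adjusted p = 0.000179) higher in NPC than in ES cells. Its 3 bright probe sets differed by 2.04 to 2.11 between MEF and ES cells and the 2 dim ones by -0.24 and -0.10. In the mean of the 5 the difference between MEF and NPC was 0.85 and was not called.

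Mbnl3 read 5.55, 5.68 and 5.02 in ES cells, 5.95, 6.45 and 6.66 in NPC and 6.93 and 7.06 in MEF. It was 2.99-fold higher in MEF than in ES cells (1.58, SE 0.265, adjusted p = 0.000916). With a pseudocount of 64 (0.95) and in the mean of its probe sets (0.80) it was not called, and its second probe set differed by 0.05. In NPC the difference from ES cells was 0.94 (SE 0.237, adjusted p = 0.00936), and it was called without ES 1 (1.01), without ES 2 (1.07), without NPC 1 (1.14) and with a pseudocount of 1 (1.29). Both further Mbnl3 probe sets had the opposite sign in this comparison (-0.69 and -0.16), and in the mean of its probe sets the difference was 0.029 (adjusted p = 0.902).

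STAR proteins carry a single KH domain and link signalling to RNA processing. Khdrbs3, known as SLM2, which directs splicing of neurexin transcripts in the brain, read 7.73, 7.94 and 7.39 in ES cells, 8.83, 10.17 and 10.33 in NPC and 7.53 and 7.53 in MEF. NPC 1 was over 1 unit under the other NPC arrays but above every ES and MEF array. It was 4.25-fold higher in NPC than in ES cells (2.09, SE 0.346, adjusted p = 0.000836) and 4.75-fold lower in MEF than in NPC (-2.25, SE 0.387, adjusted p = 0.00146). Some neuron markers had NPC 1 apart in the same direction, such as the microtubule protein Mapt at 5.27 on NPC 1 and 8.08 and 8.40 on the others. For Gap43, a protein of growth cones, NPC 1 was the highest array, at 10.05 against 8.41 and 8.54. Khdrbs1, or Sam68, found in most cells, was between 10.59 and 10.93 on all arrays. With median centring it was 0.64 higher in MEF than in ES cells (limma adjusted p = 0.00196) and 0.68 higher than in NPC (adjusted p = 0.00174). Both were under 1 unit. Khdrbs2, read from a probe set of shared sequence, had group means of 4.60 to 5.03, under the array median.

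Qk, or quaking, makes several proteins from 1 gene by alternative splicing, acts in myelinating glia and is known for keeping neural progenitors and for forming circular RNAs. Its brightest probe set read 11.32, 11.20 and 11.26 in ES cells, 12.12, 11.66 and 11.78 in NPC and 11.19 and 11.27 in MEF. The difference between NPC and ES cells was 0.59 (SE 0.112, adjusted p = 0.00183), and Qk was not called by the rule used for all genes. Its 6 other probe sets were all called higher in NPC than in ES cells. The largest difference was that of the third brightest, which read 7.94, 7.73 and 7.85 in ES cells, 11.45, 10.91 and 10.95 in NPC and 7.81 and 7.91 in MEF. On it NPC was higher than ES cells by 3.26 (SE 0.143, adjusted p = 1.41e-07 over all probe sets) and MEF was lower than NPC by the same margin (-3.25, adjusted p = 4.54e-07). Over the 7 probe sets the difference between NPC and ES cells ran from 0.59 to 3.26, and that between MEF and ES cells from -0.60 to 0.57. With the mean of the 7 probe sets Qk was 1.81 higher in NPC than in ES cells and differed by -1.86 between MEF and NPC. Which Qk transcript each probe set reads was not used here.

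**Figure D3:**
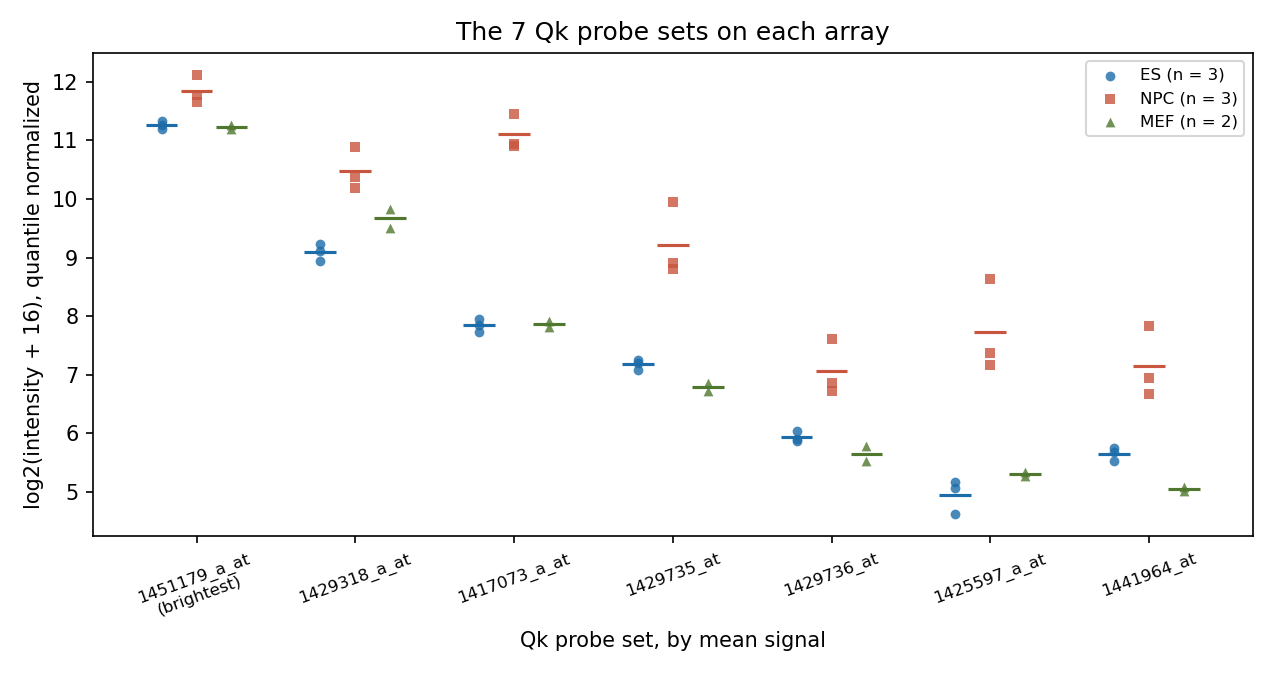
Normalized log2(intensity + 16) of the 7 Qk probe sets on each of the 8 arrays, ordered by signal, with short bars at the group means. The NPC points lie above the ES points for all 7, by 0.59 in the brightest and 3.26 in the third brightest, while MEF and ES means differ by -0.60 to 0.57.

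Srrm4 promotes the inclusion of neuronal microexons. It read 4.22, 4.72 and 5.14 in ES cells, 4.14, 4.06 and 4.14 in NPC and 5.35 and 5.27 in MEF. All NPC arrays, all ES arrays and MEF 2 lay under the array median, and MEF 1 was just above it. It was called 2.29-fold higher in MEF than in NPC (1.20, SE 0.238, adjusted p = 0.00333), and the call ended with pseudocounts of 1 (adjusted p = 0.27) and 64 (0.43) and in the mean of its 3 probe sets (0.48), 1 of which had the opposite sign.

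The FMRP family binds ribosomes and holds back translation of synaptic transcripts. Fmr1 itself, the gene silenced in fragile X syndrome, read 10.07, 9.99 and 10.07 in ES cells, 10.43, 10.07 and 10.46 in NPC and 9.70 and 9.66 in MEF. Its difference between MEF and NPC was -0.64 (SE 0.117, adjusted p = 0.00212), under the 1 unit of a call. No direction is given for it, since the difference was -0.064 (adjusted p = 0.746) with median centring and 0.28 (adjusted p = 0.24) with the deposited scaling, and both further Fmr1 probe sets had the opposite sign (0.24 and 0.73). Its paralogs Fxr1 and Fxr2 had another pattern, with ES cells above both other cell types. Fxr1 read 11.11, 11.21 and 11.28 in ES cells, 10.12, 9.85 and 10.24 in NPC and 10.13 and 10.05 in MEF. Fxr2 read 8.46, 8.63 and 8.62 in ES cells, 7.50, 6.98 and 6.79 in NPC and 7.52 and 7.42 in MEF. In NPC, Fxr1 was 2.19-fold lower than in ES cells (-1.13, SE 0.105, adjusted p = 2.04e-05) and Fxr2 2.79-fold lower (-1.48, SE 0.174, adjusted p = 9.45e-05).

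In MEF, Fxr1 differed from ES cells by -1.11 (SE 0.117, adjusted p = 4.85e-05) and Fxr2 by -1.10 (SE 0.195, adjusted p = 0.00127). Under median centring each fell to -0.63 and under the deposited scaling to -0.31, and these calls ended. Fxr1 was lower in NPC and MEF on all 4 of its probe sets, by 0.82 to 1.72 in NPC, and without probe sets of shared sequence its difference in NPC was -0.93. Fxr2 has a single probe set.

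The 250 bases upstream of the Fxr1 and Fxr2 starts are shown because these paralogs differed together between ES cells and the others, with the same motifs in capitals. Fxr1 is on the plus strand, with the window at chr3:34019829-34020078, and Fxr2 on the plus strand, with the window at chr11:69632721-69632970 (RefSeq, GRCm38.p6). Both hold the GC box, with 7 matches in Fxr1, some of them overlapping, and 2 in Fxr2, and Fxr1 also has 1 Sox core. The Fxr1 window is 80.0% G and C.
Fxr1: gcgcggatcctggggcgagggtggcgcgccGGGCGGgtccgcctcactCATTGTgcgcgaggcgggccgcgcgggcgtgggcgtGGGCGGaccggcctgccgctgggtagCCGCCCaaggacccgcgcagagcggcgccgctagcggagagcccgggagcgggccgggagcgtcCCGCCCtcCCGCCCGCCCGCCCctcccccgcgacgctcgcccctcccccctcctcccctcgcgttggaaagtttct
Fxr2: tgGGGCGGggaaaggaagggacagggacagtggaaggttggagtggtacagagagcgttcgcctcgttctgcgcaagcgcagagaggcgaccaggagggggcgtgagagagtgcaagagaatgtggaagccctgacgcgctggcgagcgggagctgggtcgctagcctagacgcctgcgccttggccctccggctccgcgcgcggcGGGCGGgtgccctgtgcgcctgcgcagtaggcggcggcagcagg

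Pum2, a Pumilio protein that binds UGUA elements and recruits deadenylases, read 9.98, 9.96 and 10.02 in ES cells, 10.12, 9.29 and 9.62 in NPC and 9.47 and 9.57 in MEF. The NPC arrays spanned the ES arrays. Its differences from ES cells of -0.31 (adjusted p = 0.198) in NPC and -0.46 (adjusted p = 0.0873) in MEF did not pass the test.

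CPEB proteins bind the cytoplasmic polyadenylation element and set the length of poly(A) tails. Cpeb4 was the member that differed most. It read 7.22, 6.91 and 7.18 in ES cells, 9.97, 9.67 and 9.80 in NPC and 8.32 and 8.36 in MEF, in 3 steps without overlap. It was 6.55-fold higher in NPC than in ES cells (2.71, SE 0.116, adjusted p = 1.79e-07) and 2.36-fold higher in MEF than in ES cells (1.24, SE 0.13, adjusted p = 4.83e-05). MEF was 2.78-fold under NPC (-1.47, SE 0.13, adjusted p = 2.4e-05), which median centring (-0.89), the deposited scaling (-0.55) and the mean of its probe sets (-1.0, just short of the threshold) left uncalled. All 3 Cpeb4 probe sets had these signs.

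Cpeb1, known from oocyte maturation and from synapses, read 5.53, 5.59 and 5.64 in ES cells, 4.96, 4.31 and 4.47 in NPC and 5.87 and 5.94 in MEF. It was lowest in NPC, where the signal was under the array median. It was 2.5-fold higher in MEF than in NPC (1.32, SE 0.212, adjusted p = 0.000969), a call that a pseudocount of 64 (0.58) ended. The difference between NPC and ES cells of -1.0 (SE 0.189, adjusted p = 0.00185) sat on the threshold, and the call was lost without ES 2 (-1.0), ES 3 (-0.98), NPC 2 (-0.87) or NPC 3 (-0.94), and with median centring (-0.94), the deposited scaling (-0.96) or a pseudocount of 64 (-0.41). Cpeb2 was at 5.73 to 6.32 in ES cells and NPC and 6.65 and 6.88 in MEF, 0.83 (adjusted p = 0.00944) higher in MEF than in NPC. Cpeb3 was between 5.07 and 5.63 on all arrays.

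Further probe sets bear on how far the brightest one speaks for a gene. Of the 39 called differences, 31 were of genes with further probe sets. In 24 of the 31 all of these had the same sign, and in 24 at least 1 of them was called in the same direction. In none was 1 called in the opposite direction. The same counts over all genes were not taken, so whether these are usual for the array is not known. Of 53 differences that were not called and had further probe sets, 7 had 1 that was called: Qk in both comparisons with NPC, Msi2 in both with ES cells, Celf1 in both with MEF and Cpeb2 in MEF against ES cells. The 7 genes with a single probe set were Celf3, Celf5, Celf6, Khdrbs2, Khdrbs3, Fxr2 and Cpeb1.

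Scaling mattered for the comparisons with MEF. With the deposited scaling the median of all genes shifted by 0.32 between MEF and ES cells and by 0.43 between MEF and NPC. The share of higher genes among all those called in MEF against ES cells was 48.9% after quantile normalization, 65.1% after median centring and 79.4% with the deposited scaling, and in MEF against NPC it was 56.9%, 74.2% and 87.6%. For the 35 genes the split in MEF against ES cells was 7 higher and 6 lower, 7 and 4, and 8 and 4 under the same 3 scalings. In MEF against NPC it was 6 and 7, 10 and 5, and 12 and 4. Scaling each array to a common trimmed mean stayed near the quantile values. There 47.1% of all called genes were higher in MEF against ES cells and 53.1% in MEF against NPC. The splits of the 35 genes were 7 and 6, and 6 and 7. None of the 39 calls changed its sign under any of these scalings.

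Lists of related genes were read from the same fit, chosen by function. SR proteins and Tra2, which bind exonic enhancers, had no called gene among 12 in any of the 3 limma comparisons. At an unadjusted p under 0.05, 1 of them was higher and 7 lower in NPC than in ES cells. The counts were 1 and 6 in MEF against ES cells and 2 and 4 in MEF against NPC, with differences within -0.67 to 0.64 throughout. The share of all genes at this threshold was not taken, so no shift is read from these counts. By adjusted p alone, 8530, 8447 and 7145 of all 18193 genes passed in the 3 comparisons. With the deposited scaling 1 SR gene was called higher in MEF than in ES cells and 3 higher than in NPC. Of 22 hnRNP and poly(C) binding proteins, none was called in NPC against ES cells by limma, with a median of 0.07. At an unadjusted p under 0.05 there were 7 higher and 3 lower, likewise not read as a shift between NPC and ES cells. Hnrnph3 was just short of a call there (-0.98) and passed without ES 3 (-1.04), without NPC 1 (-1.07) and under the 3 other scalings (-1.09 to -1.01). Hnrnph3 was 4.12-fold lower in MEF than in ES cells (-2.04, SE 0.119, adjusted p = 1.27e-06) and Hnrnpl 2.08-fold higher (1.05, SE 0.135), the latter not in the mean of its probe sets (0.33). With the deposited scaling 6 were called higher and 1 lower in MEF than in ES cells, in place of 1 and 1.

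Among 21 other regulators of alternative splicing, 3 were called higher and 4 lower in NPC than in ES cells, with a median of -0.15. Rbms3, which binds AU-rich RNA, was 26.9-fold higher in NPC (4.75, SE 0.139, adjusted p = 1.82e-08) and 32.4-fold higher in MEF (5.02) than in ES cells. Rbm24, a splicing regulator of muscle, was 14.0-fold higher in NPC (3.81, SE 0.244, adjusted p = 1.93e-06). Esrp1, which directs epithelial splicing, was 18.3-fold lower in NPC (-4.19, SE 0.149, adjusted p = 5.88e-08) and 16.8-fold lower in MEF (-4.07), and Rbpms was 20.8-fold lower in NPC (-4.38) and 4.49-fold lower in MEF (-2.17). In MEF against ES cells 3 were called higher and 4 lower (7 and 4 with the deposited scaling), and in MEF against NPC 3 higher and 5 lower (7 and 1).

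Of 21 partners in mRNA turnover and translation, 1 was called higher and 3 lower in NPC than in ES cells. Stau2, which carries transcripts into dendrites, was 1.02 higher (SE 0.15, adjusted p = 0.000398), not called with median centring (0.98) or without ES 2 (0.90) or NPC 2 (0.97). The nuclease Parn was lower by 1.44 (log2 difference -1.44), and Cyfip2 and Nufip1, named for binding FMRP, differed by -1.25 and -1.36, the first not called without NPC 3 (-0.98). In MEF against ES cells the count was 1 higher and 4 lower, and with the deposited scaling 9 higher and none lower, so no direction is given for that comparison. REST, which silences neuronal genes outside neurons, was read with 10 of its partners. Rest read 10.43, 10.48 and 10.56 in ES cells, 7.87, 7.46 and 7.65 in NPC and 8.99 and 9.05 in MEF, with the 3 cell types well apart. It was 7.1-fold lower in NPC than in ES cells (-2.83, SE 0.109, adjusted p = 9.1e-08) and 2.76-fold lower in MEF (-1.47, SE 0.121, adjusted p = 1.07e-05), the latter not called under median centring (-0.97), under the deposited scaling (-0.65) or in the mean of its probe sets (-1.0). Of these 11 genes, 3 were called higher and 3 lower in MEF than in ES cells, or 5 and 2 with median centring and 6 and 0 with the deposited scaling, so no direction is given for the group there. Sin3a (-1.24) and Rcor2 (-1.07, or -0.89 and not called without NPC 1) were lower in NPC too, and the phosphatases Ctdspl (1.92) and Ctdsp1 (1.12), which act with REST outside neurons, higher.

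**Figure D4:**
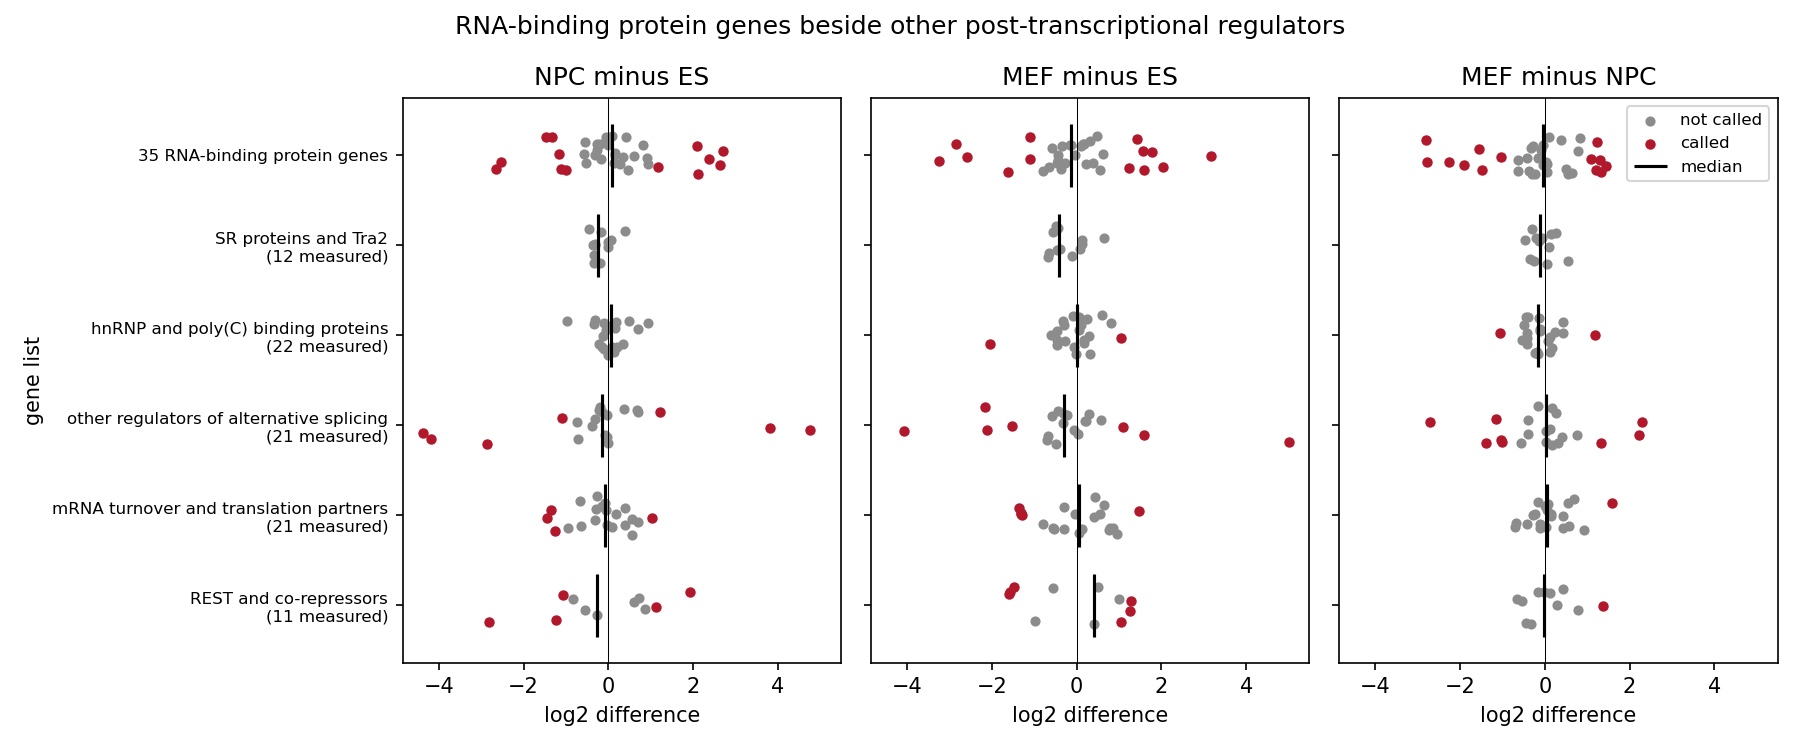
Log2 differences of the 35 genes and of the genes of each related list in the 3 comparisons, 1 point per gene with the median of each list. The SR points stay within 1 log2 unit, while the points of the other splicing regulators reach from -4.38 to 4.75 in NPC against ES cells.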

How the data were processed

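Each of the 8 arrays was deposited as a linear intensity per probe set (45101 of them), made by the authors with GCOS 1.4, per the submitters' processing notes. Its algorithm and scaling settings are not given in the sources used here. No detection calls were used. After 64 control probe sets were left out, 34945 of 45037 probe sets were annotated to 1 gene, 932 to several and 9160 to none. Only the first kind was used, with the brightest probe set over the 8 arrays for each of 18193 genes. Values were transformed to log2(intensity + 16), which understates differences of dim genes, and quantile normalized.

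Using limma 3.58.1 (R 4.3.3), 1 linear model with a trended variance was fitted to all 8 arrays, and the MEF group of 2 borrows its spread from the other groups. The number of arrays limits the precision. Benjamini-Hochberg adjustment ran over the 18193 genes. The shift of the Ptbp2 to Ptbp1 ratio was tested by exact permutation. The procedure was tested on simulated data. Any of the 35 genes could be named, and from each related list up to 3 called genes in each direction. The 35 genes and the lists were chosen with earlier results of these data known. Markers were the lists given by cell type. Alternatives were 3 other scalings, pseudocounts of 1 and 64, leaving out dim genes, averaging a gene's probe sets, dropping those of shared sequence (suffixes _x_at, _s_at and _a_at), an untrended variance, a fit of only the compared groups, a replicate block, looser and stricter thresholds, and each array left out in turn. Upstream windows came from a RefSeq table (GRCm38.p6), and 6 of the 35 genes had none.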

Additional observations from a re-analysis of the deposited data

How the results depend on the processing

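Most values held: 13 of the 35 genes were called in each comparison, and leaving out each array in turn gave 12 to 15 for NPC against ES cells, 13 to 13 for MEF against ES cells and 12 to 13 for MEF against NPC, where leaving out a MEF array assumes that the other varies like the remaining groups. Over all genes, with each ES or NPC array left out in turn and both MEF arrays kept, the ranges were 4092 to 4404, 4480 to 4604 and 3279 to 3576. For the Ptbp2 to Ptbp1 shift, with any array left out, they were 0.17 to 0.49, -0.73 to -0.55 and -1.12 to -0.81. A pseudocount of 64 lowered the genes called to 2638, 2948 and 2110, from 4173, 4554 and 3359, and the count among the 35 genes in MEF against NPC to 7. An adjusted p alone, with no minimum difference, raised them to 8530, 8447 and 7145, and the count among the 35 genes in NPC against ES cells to 20. The deposited scaling gave 5101 genes in MEF against NPC, and the cause was not tested. Without probe sets of shared sequence the Ptbp2 to Ptbp1 shift from ES cells to NPC turned to -0.081. The same choice turned the listed genes Auh in MEF against ES cells (0.30), Pdgfrb in NPC against ES cells (0.081) and Laptm5 against ES cells in NPC (0.74) and MEF (0.75), because another probe set was read. None of the called differences of the 35 genes turned under any alternative. Replicate numbers are not said to pair the arrays. Same-numbered arrays of different cell types correlated in their deviations at -0.02 to 0.02 over 7 pairs and others at -0.03 to 0.04 over 14. Deviations of the 2 MEF arrays mirror each other, so this check is weak and cannot show that the arrays are unpaired. With the replicate block the genes called were 4186, 4564 and 3357, and 13 of the 35 genes in each comparison. Genes near or under the array median, such as Celf3, Celf6 and Khdrbs2, are limited by signal, and no measure of depth exists for arrays.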
